A study of Mus musculus with 16 samples.

Results

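The immune, cytokine and interferon genes of mouse kidney were examined in 4 mice that lack Slc15a2, the gene of the peptide transporter PEPT2 (also written Pept2). Members were chosen by symbol only: the CD antigens, and the genes whose names begin with H2-, Irf, Ifi, Stat, Il, Ccl, Cxcl, Tlr, C1qa to C1qc, Tap1, Tap2 or Gbp. The rule uses the symbols and whether a probe had values, not their size. The arrays carried 120 such genes with a probe of their own, and 74 of these could be tested, among 6191 tested genes in all. A symbol does not always mark an immune function. H2-Ke6 is a steroid dehydrogenase that lies in the histocompatibility region, Irf2bp1 and Irf2bp2 are partners of an interferon regulatory factor, and Cd320 is the receptor for vitamin B12 bound to transcobalamin.

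The knockout group was 4 Pept2-/- male mice, here mouse 1 to mouse 4, and the control was 1 pool of RNA from 5 wild-type (Pept2+/+) kidneys. All animals were 88 (±2) days old, had a mixed C57BL/6 and 129Sv background and descended from F4 matings of a heterozygous line, and the right kidney was used for every mouse. Knockout and wild-type animals came from separate litters, the -/- genotype was inherited by every cell, and the labels describe no treatment, infection or other immune challenge. Each knockout mouse was hybridised against the pool on 4 two-colour cDNA arrays, with its RNA placed 2 times in channel 1 and 2 times in channel 2, giving 16 arrays for 4 animals. Every value below is a log2 ratio of knockout over pool, in which 0 means equal and a negative value means lower in the knockout. No single wild-type kidney was measured, so the tests against 0 do not include how much wild-type mice vary, and any error in the pool affects all 4 knockouts alike.

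Class I histocompatibility molecules carry peptides from inside the cell, delivered by the TAP transporter, and class II molecules carry peptides taken up from outside, with the help of the invariant chain Cd74 and the H2-DM exchange factors. In a healthy kidney the class II genes are mainly those of resident macrophages and dendritic cells, while tubule cells contribute Cd24a and the cytokine Il34. Interferons act through the Stat proteins and the Irf factors on induced genes such as Ifit3, Ifitm3 and Gbp4, and interleukins act through receptor chains that also signal to Stat proteins.

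Promoter stretches of 4 members are shown because they carry the sequence through which class II genes, interferon-induced genes and Stat targets are classically controlled. They come from RefSeq (build GRCm38.p6) and are written 5′ to 3′ on the strand of the gene. Capitals mark the Y box CTGATTGG in H2-Aa (chr17:34287824-34287983) and H2-Eb1 (chr17:34305707-34305866), the interferon-stimulated response element (GAAA, any 2 bases, GAAA), matched on the opposite strand, in Ifit3 (chr19:34583369-34583528), and the Stat site TTCNNNGAA in Irf1 (chr11:53769854-53770013).
H2-Aa: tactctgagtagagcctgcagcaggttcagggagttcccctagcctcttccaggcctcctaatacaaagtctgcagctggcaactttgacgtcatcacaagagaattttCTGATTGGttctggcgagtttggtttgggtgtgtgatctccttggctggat
H2-Eb1: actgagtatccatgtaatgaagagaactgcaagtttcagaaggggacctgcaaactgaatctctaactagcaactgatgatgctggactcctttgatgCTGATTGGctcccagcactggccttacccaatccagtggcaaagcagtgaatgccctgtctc
Ifit3: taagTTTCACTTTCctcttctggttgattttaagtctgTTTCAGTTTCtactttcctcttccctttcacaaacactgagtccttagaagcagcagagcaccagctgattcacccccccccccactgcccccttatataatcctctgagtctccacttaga
Irf1: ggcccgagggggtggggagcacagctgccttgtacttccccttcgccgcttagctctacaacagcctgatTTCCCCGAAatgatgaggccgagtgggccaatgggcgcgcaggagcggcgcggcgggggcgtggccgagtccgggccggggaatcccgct

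A promoter entry was found for 60 of the 74 tested members, and the 250 bases before the start were searched on both strands. The response element occurred in 6 of the 60 (10%), namely Cxcl14, Ifi203, Ifit3, Ifitm2, Stat2 and Stat4, against 3.46% of 27025 genes. CTGATTGG occurred in 4 (6.67%), H2-Aa, H2-Eb1, Irf8 and Tap1, against 4.43%. TTCNNNGAA, which reads the same on both strands, occurred in 8 (13.3%), among them Irf1, Irf8 and Cd3d, against 8.13%. A match describes these letters only and is not evidence of binding. The carriers of the response element did not share a direction: Ifit3 had a mean ratio of -0.16 and Cxcl14 of 0.11.

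Slc15a2 itself was lowest of all genes tested, with ratios of -2.17, -2.74, -2.81 and -2.33 in mouse 1 to mouse 4 and a mean 5.71-fold lower in the knockout (SE 0.16 on the log2 scale, n = 4 mice, adjusted p = 2.17e-05 in limma). The deposited values did not state which channel was the numerator. As deposited, Slc15a2 was negative on the 8 arrays that held the knockout in channel 1 and positive on the 8 that held it in channel 2, which gives the likely direction used here. Read the other way, every "higher" and "lower" below would be exchanged. Of 20205 probes, 10134 to 18400 had a value on an array, and the median standard error of a ratio was 0.05 for the immune genes as for all genes. The files hold ratios without intensities, so the level of a marker in the kidney could not be examined, only its ratio. In whole kidney, fewer cells of a type and less RNA per cell cannot be told apart.

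No immune gene passed the test against the wild-type pool. At an adjusted p under 0.05 in limma, 0 of the 74 immune genes were called, against 0.210% of all genes (13 of 6191). At an unadjusted p under 0.05 there were 16 immune genes, 8 higher and 8 lower, which is 21.6% of them against 16.8% of all genes. By direction, 10.8% of the immune genes were higher and 10.8% lower, against 6.80% and 10.0% of all genes. A ratio above 0 was found for 41 immune genes (55.4%, against 48.2% of all genes) and below 0 for 33 (44.6%, against 51.8%). The median ratio of the immune genes was 0.01, and that of all genes -0.00. Means ran from -0.28 for Cd24a to 0.42 for Tap1.

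**Figure D1:**
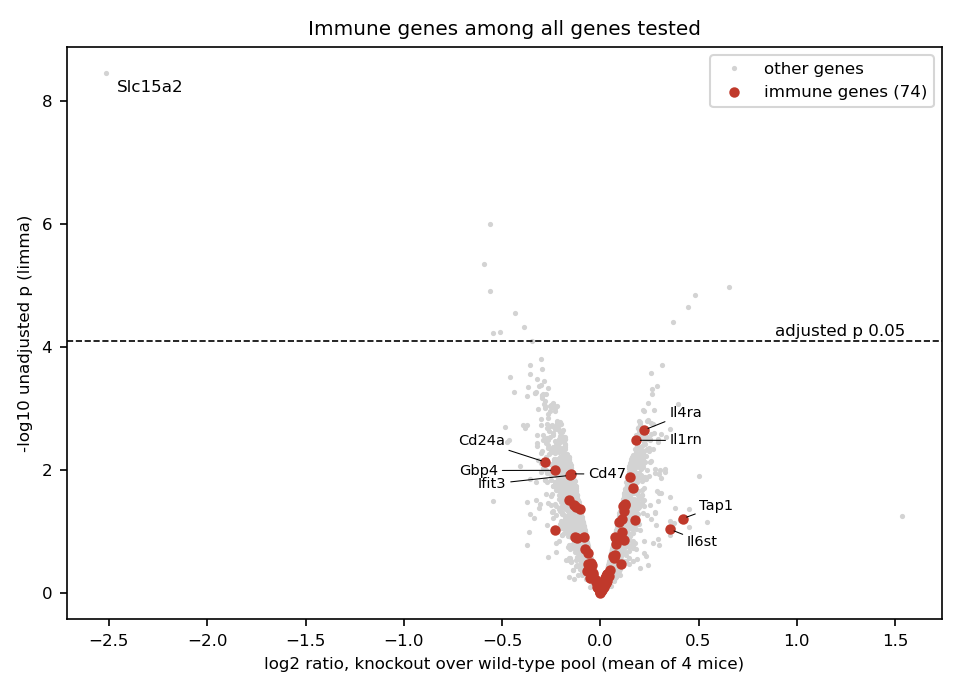
Mean log2 ratio of knockout over wild-type pool in 4 mice (x axis) against -log10 of the unadjusted limma p (y axis), with the 74 immune genes in red, the other tested genes in grey and the adjusted threshold of 0.05 as a dashed line. No red point lies above the line, and Slc15a2 stands apart at -2.51.

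All 4 mice had the same sign for 20 immune genes (27.0%), 12 above 0 and 8 below, against 25.7% of all genes. The sign also held in both orientations of every mouse for 6 of them, Il4ra, Il1rn and Cd99 above 0 and Cd47, Ifit3 and Cd3d below (8.11%, against 5.41% of all genes). Neither share was tested against that of all genes.

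**Figure D2:**
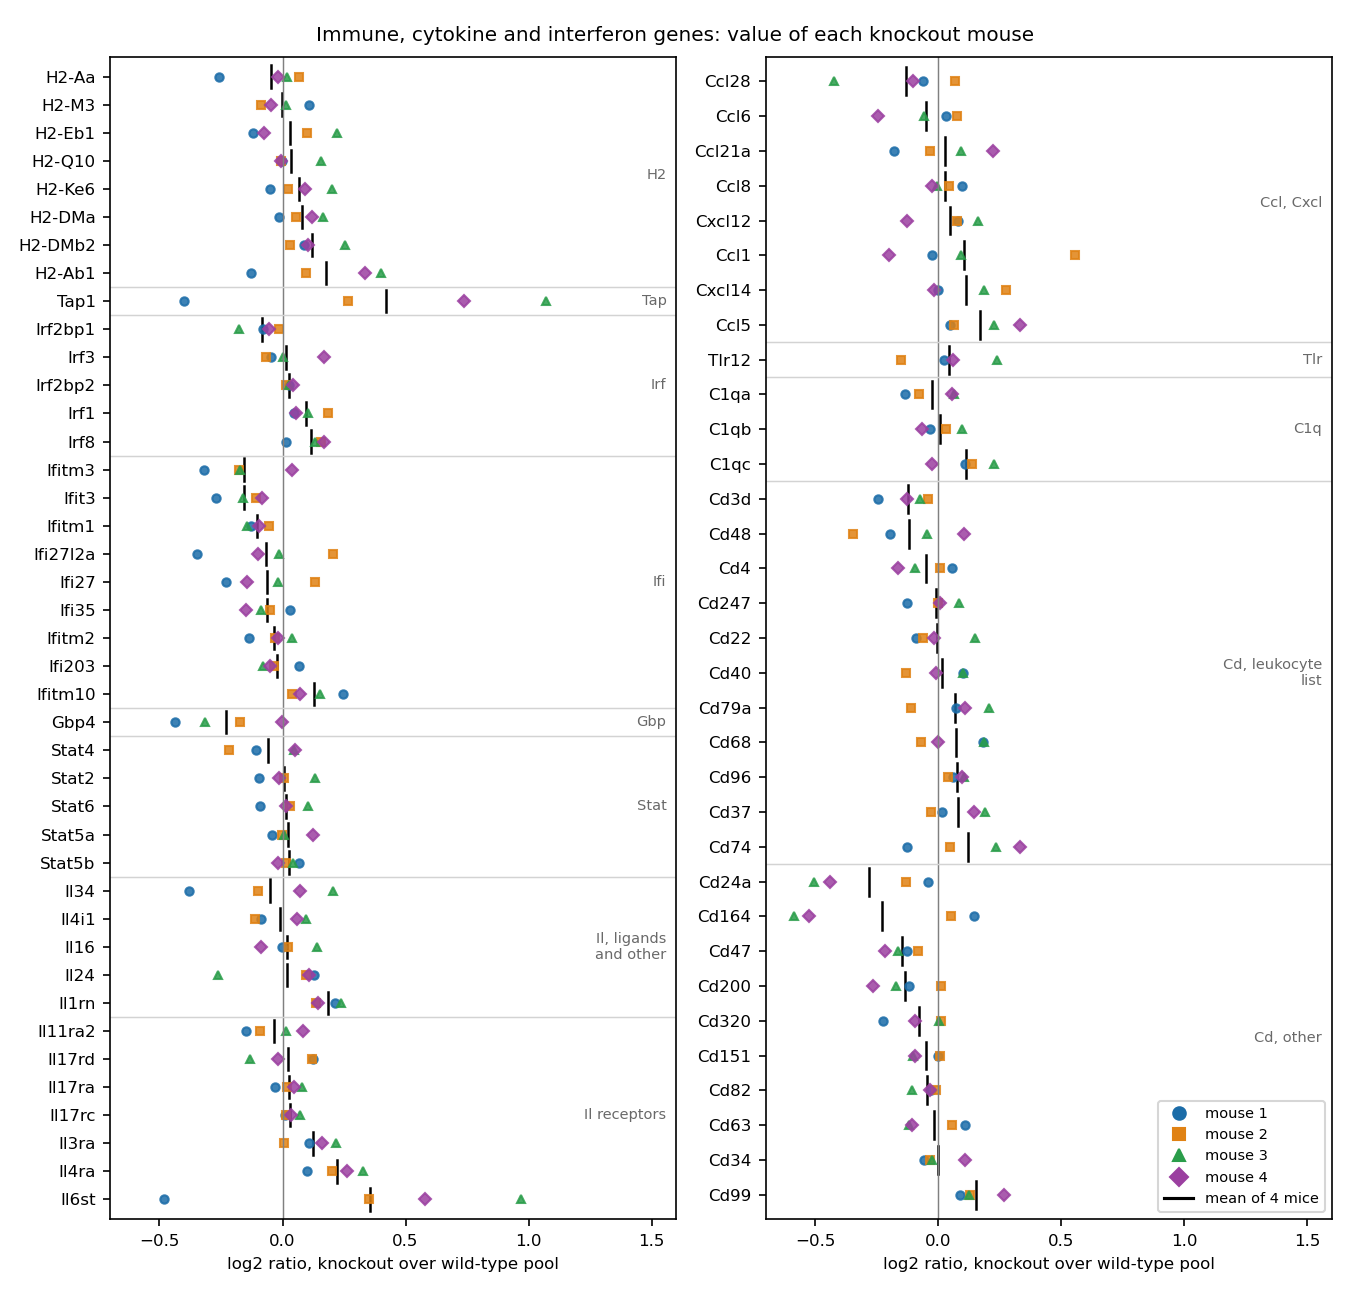
Log2 ratio of each of the 74 immune genes in each knockout mouse (coloured symbols, n = 4) and the mean of the mice (black bar), grouped by symbol. Most genes stay within 0.3 of 0 in every mouse, while Tap1 and Il6st spread from below -0.3 in mouse 1 to about 1 in mouse 3.

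The class II genes were 5 of 6 above 0 (H2-Ab1, H2-DMa, H2-DMb2, H2-Eb1 and Cd74), with H2-Aa below, and none passed the test. Their median by mouse was -0.12, 0.06, 0.23 and 0.11 for mouse 1 to mouse 4. H2-Ab1, the beta chain of I-A, had ratios of -0.13, 0.10, 0.40 and 0.34 (mean 0.18, SE 0.12, adjusted p = 0.326 in limma). H2-Aa, the alpha chain that pairs with it in the same molecule, had -0.26, 0.07, 0.02 and -0.02 (mean -0.05). Mouse 1 was thus the lowest animal for both chains, and mice 3 and 4 were high for the beta chain only. Cd74, the invariant chain that guides class II molecules to the endosome, had -0.13, 0.05, 0.23 and 0.33 (mean 0.12, SE 0.10). H2-DMb2, a chain of the peptide exchange factor and the H2 gene with the smallest p, was above 0 in all 4 mice, at 0.09, 0.03, 0.25 and 0.10 (mean 0.12, SE 0.05, adjusted p = 0.287 in limma). Among the 8 tested H2 genes, 6 had a mean above 0, from -0.05 for H2-Aa to 0.18 for H2-Ab1. The median of these 8 was 0.13 with knockout RNA in channel 1 and -0.01 in channel 2, and that of the 6 class II genes was 0.14 and 0.04. The 2 class I genes among them, H2-M3 and H2-Q10, had means of -0.00 and 0.03.

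Tap1, a subunit of the transporter that loads peptides on class I molecules, had the widest spread of all immune genes, with -0.40, 0.27, 1.07 and 0.74 in mouse 1 to mouse 4. Its mean of 0.42 had a standard error of 0.32 and an adjusted p of 0.319 in limma, and it was 0.69 without mouse 1 and 0.20 without mouse 3. Mouse 1 and the other animals lay on opposite sides of 0, and the differences between mice are taken up again after the single groups.

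The genes named for induction by interferon were mostly below 0: 8 of 9 Ifi genes had a negative mean (median -0.06, range -0.16 to 0.13), and none passed the test. The group's median was -0.12 with knockout RNA in channel 1 and 0.01 in channel 2. Ifit3, an inhibitor of viral replication, had -0.27, -0.11, -0.16 and -0.08 in the 4 mice and was below 0 on 14 of 16 arrays, which ranged from -0.49 to 0.07 around a median of -0.16. Its mean was 1.11-fold lower (SE 0.04 on the log2 scale, adjusted p = 0.186 in limma). All 4 animals lay below the pool, with mouse 1 the lowest. Ifitm3, a membrane protein that blocks virus entry, had -0.32, -0.18, -0.17 and 0.04 (mean -0.16, SE 0.07), so that mouse 4 was on the other side of 0. Ifitm1, of the same family, was below 0 in all 4 mice (mean -0.10). Its value rested on one orientation, with a mean of 0.01 with knockout RNA in channel 1 and -0.22 in channel 2. Ifitm10 was the exception among the Ifi genes, at 0.24, 0.04, 0.15 and 0.07 (mean 0.13, SE 0.05, adjusted p = 0.268 in limma), with 0.02 in channel 1 and 0.23 in channel 2. Its value in mouse 1 rested on an array at 1.05, beside arrays at 0.03 and -0.05. A further probe of Ifitm10, with a value on 5 arrays and so not tested, had -0.08 in mouse 2 and -0.19 in mouse 4. Ifi27l2a differed most between animals in this group, at -0.35, 0.20, -0.02 and -0.10.

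**Figure D3:**
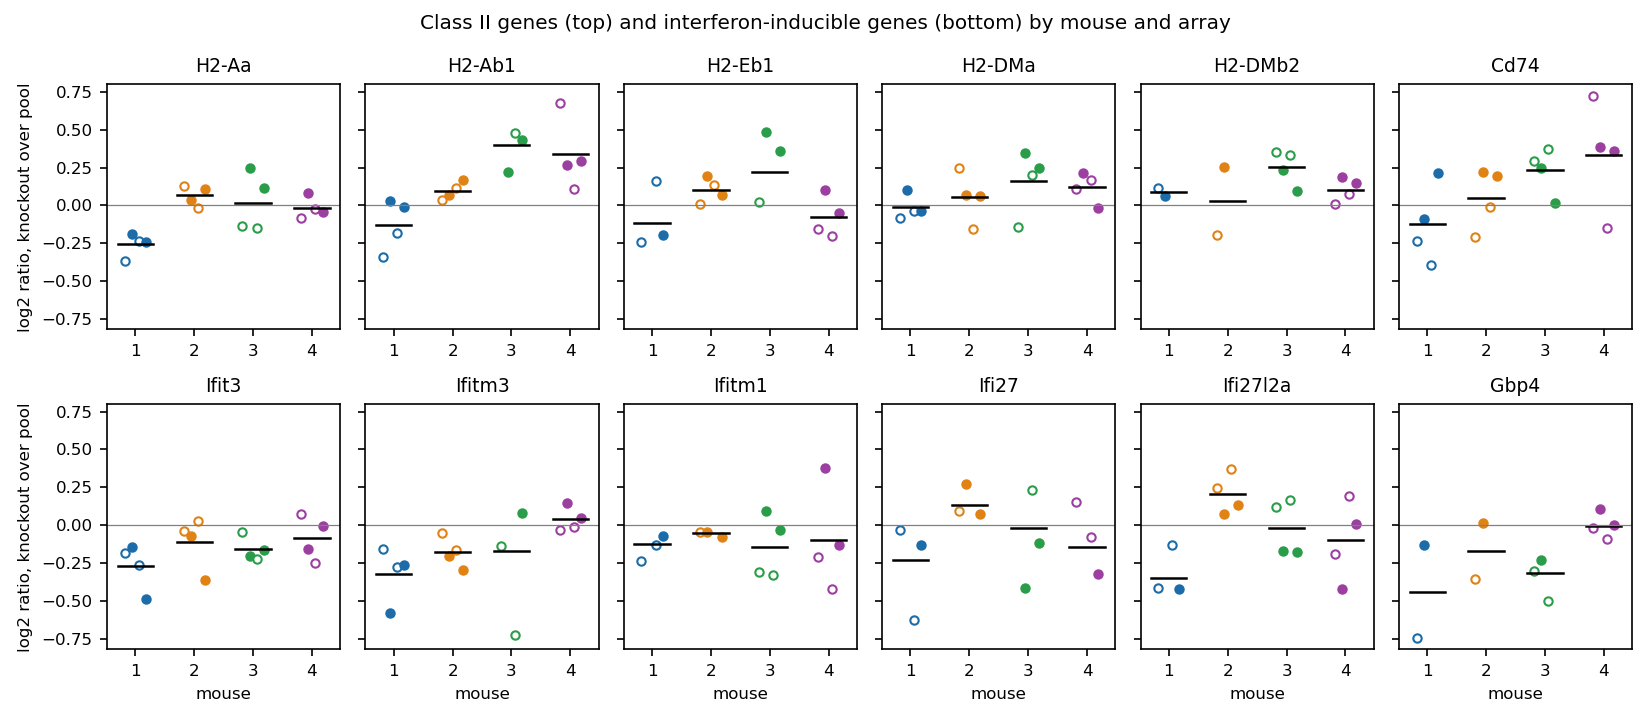
Log2 ratio of 6 class II genes (top row) and 6 interferon-induced genes (bottom row) on each array, by mouse; filled points are arrays with knockout RNA in channel 1, open points in channel 2, and the black bar is the value of the mouse. Mouse 1 is lowest for H2-Aa, H2-Ab1, H2-Eb1, H2-DMa and Cd74 and also for Ifit3, Ifitm3, Ifi27, Ifi27l2a and Gbp4. Among the Ifi genes not shown, mouse 1 was lowest for Ifitm2 (-0.14). It was the highest animal for Ifi203 (0.07), Ifi35 (0.03) and Ifitm10 (0.24).

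Gbp4, a guanylate-binding GTPase induced by interferon gamma, had -0.44, -0.17, -0.31 and -0.00 (mean -0.23, SE 0.09, adjusted p = 0.181 in limma). Its 11 array values ran from -0.74 to 0.10, and the mean was -0.07 with knockout RNA in channel 1 and -0.39 in channel 2. Mouse 4 was at the level of the pool while the other animals were below it.

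The 5 Irf genes, the partners Irf2bp1 and Irf2bp2 among them, had means from -0.08 to 0.12, and none passed the test. Of these, 4 were above 0 and Irf2bp1 was below. Irf8, a factor of macrophages and dendritic cells, had the smallest p, with 0.01, 0.16, 0.13 and 0.17 (mean 0.12, SE 0.04, adjusted p = 0.271 in limma). Irf1, which carries the Stat site shown above, was above 0 in all 4 mice, with 0.05, 0.18, 0.10 and 0.05 (mean 0.10, SE 0.03). Its 11 array values ran from -0.40 to 0.51. The value of mouse 4 averaged opposite readings, 0.51 and 0.25 with knockout RNA in channel 1 and -0.40 and -0.16 in channel 2. Irf3 had a mean of 0.01. The 5 Stat genes ranged from -0.06 to 0.03, and the member with the smallest p, Stat4, a mediator of interleukin 12 signalling, had -0.11, -0.22, 0.05 and 0.05 (mean -0.06, adjusted p = 0.62 in limma). The Stat genes, which transmit the interferon and interleukin signals, thus had the narrowest range of the groups with 5 or more tested genes.

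Among the interleukin receptors, 6 of 7 were above 0. Il4ra, the receptor chain shared by interleukins 4 and 13, had the smallest p of all immune genes, and its ratios were 0.10, 0.20, 0.33 and 0.26. It was above 0 on 13 of 16 arrays (-0.11 to 0.59, median 0.23), with means of 0.11 and 0.33 with knockout RNA in channel 1 and channel 2. The mean was 1.17-fold higher (SE 0.05 on the log2 scale, adjusted p = 0.145 in limma). All 4 animals lay above the pool, yet the gene was not past the threshold over all genes. Il3ra, the chain specific to interleukin 3, had 0.11, 0.01, 0.22 and 0.16 (mean 0.12, SE 0.04, adjusted p = 0.271 in limma). The subunits of the interleukin 17 receptor had means of 0.03 for Il17ra, 0.03 for Il17rc and 0.02 for Il17rd. Il6st, the gp130 chain shared by the interleukin 6 family, had -0.48, 0.35, 0.97 and 0.58 (mean 0.36, SE 0.31). Its mean was 0.63 without mouse 1 and 0.15 without mouse 3.

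Of the ligands and other Il genes, Il1rn stood first. It encodes the antagonist that occupies the interleukin 1 receptor without signalling, and it had 0.21, 0.14, 0.24 and 0.14 in the 4 mice (mean 0.18, 1.14-fold, SE 0.03, adjusted p = 0.148 in limma). On this probe the mice lay close together although single arrays ran from -0.51 to 0.65. A further probe of Il1rn, with a value on 7 arrays and so not tested, had -0.20, 0.19, 0.40 and 0.04. Mouse 1 was thus below 0 on it, and the mice lay further apart. Over probes with 1 or more values for each mouse, the mean of Il1rn was 0.15 (adjusted p = 0.373 in limma). Il34, the second ligand of the macrophage receptor Csf1r and a product of tubule cells, had -0.38, -0.10, 0.21 and 0.07 (mean -0.05, SE 0.13). Il16, a chemoattractant of CD4+ cells, had a mean of 0.02, but its probes disagreed in sign, at -0.04 and 0.08.

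The 8 chemokines ranged from -0.13 to 0.17, with 6 above 0. Ccl5, which attracts T cells and monocytes, was above 0 in all 4 mice, with 0.05, 0.07, 0.23 and 0.33 (mean 0.17, SE 0.07, adjusted p = 0.216 in limma). That agreement rested on one orientation: the mean was -0.17 with knockout RNA in channel 1 and 0.51 in channel 2, and 8 of 14 arrays were above 0. Ccl1, a ligand of Ccr8, was high in mouse 2 (-0.03, 0.55, 0.09 and -0.20), where its value came from 2 arrays at -0.15 and 1.26. Cxcl12, which retains leukocytes and progenitors in tissue, had a mean of 0.05 with probes at 0.10 and -0.01. Cxcl14, an epithelial chemokine, had -0.00, 0.28, 0.19 and -0.02 (mean 0.11).

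Of the 3 Toll-like receptor genes, Tlr12 was the one that could be tested. Tlr12, a receptor for microbial profilin, had 0.02, -0.15, 0.24 and 0.06 (mean 0.04). The C1q chains, which resident macrophages make, had means of -0.02 for C1qa, 0.01 for C1qb and 0.11 for C1qc. C1qc had the smallest p of these, with 0.11, 0.14, 0.23 and -0.02 (SE 0.05, adjusted p = 0.321 in limma).

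CD antigens of leukocytes showed no common direction, with 6 of 11 above 0 (median 0.02). Cd3d, a chain of the T cell receptor complex, was below 0 in all 4 mice, at -0.24, -0.04, -0.07 and -0.13 (mean -0.12, SE 0.04, adjusted p = 0.275 in limma). Cd96, an antigen of T and natural killer cells, was above 0 in all 4 (mean 0.08). Cd4 had a mean of -0.05, the macrophage antigen Cd68 of 0.07 and the B cell antigen Cd79a of 0.07. Antigens of the same cell type thus lay on both sides of 0.

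The other CD antigens, which are found on many cell types including epithelium, were below 0 for 9 of 10 genes (median -0.06). The group's median was -0.08 with knockout RNA in channel 1 and -0.15 in channel 2. Not every member was clearly below: Cd34 had a mean of -0.00. Cd151 and Cd82 were above 0 in channel 1 (0.07 and 0.03) and below 0 in channel 2 (-0.17 and -0.12). Cd24a, a surface glycoprotein of distal tubule and other epithelial cells, had -0.04, -0.13, -0.51 and -0.44 and was below 0 on 15 of 16 arrays. Its mean was 1.21-fold lower (SE 0.11 on the log2 scale, adjusted p = 0.174 in limma), and its probes had means of -0.26 and -0.30. Cd47, the signal that restrains macrophage uptake, had -0.13, -0.08, -0.16 and -0.22 (mean -0.15, 1.11-fold lower, SE 0.03, adjusted p = 0.185 in limma) and was below 0 on 14 of 15 arrays. All 4 mice lay below the pool for both genes. Cd200, a ligand that dampens macrophages, had -0.12, 0.01, -0.17 and -0.26 (mean -0.14, adjusted p = 0.271 in limma). Cd99, an adhesion molecule of leukocyte passage, was the member above 0, with 0.09, 0.13, 0.13 and 0.27 (mean 0.15, SE 0.04, adjusted p = 0.186 in limma). Cd63, a tetraspanin of late endosomes, had a mean of -0.02 with probes at -0.08 and 0.04.

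A second comparison asked whether the 4 knockout mice differed from each other, which the pool cannot affect because it is common to all. The moderated F test takes arrays as replicates of a mouse, so it compares these animals and not genotypes, and array replicates measure technical spread. Among the immune genes 5 passed at an adjusted p under 0.05 (6.76%), against 2.54% of all genes (157 of 6191). They were Il6st (adjusted p = 2.13e-06 in limma), Tap1 (7.40e-05), Cd164 (0.00200), Il34 (0.00354) and Cd24a (0.00693). At an unadjusted p under 0.05 there were 16 immune genes (21.6%), against 13.6% of all genes.

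**Figure D4:**
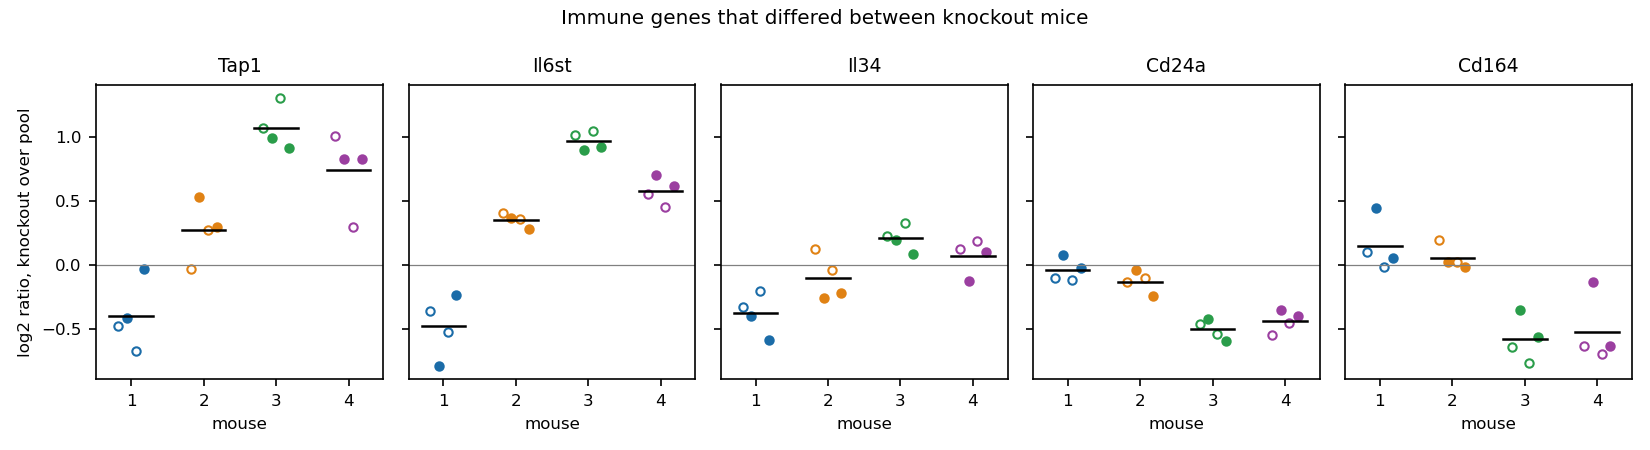
Log2 ratio on each array (points, filled for knockout RNA in channel 1 and open for channel 2) and value of each mouse (black bar) for the 5 immune genes that differed between knockout mice. Mouse 1 is lowest for Tap1, Il6st and Il34, and mice 3 and 4 are lowest for Cd24a and Cd164.

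For Il6st the arrays of different mice did not overlap. They ran from -0.79 to -0.24 in mouse 1, from 0.28 to 0.41 in mouse 2, from 0.90 to 1.04 in mouse 3 and from 0.45 to 0.70 in mouse 4. The animals were thus separated, with mouse 1 lowest and mouse 3 highest. For Tap1 the ranges were -0.67 to -0.03, -0.03 to 0.53, 0.91 to 1.31 and 0.29 to 1.01. Mouse 1 lay below the other mice apart from a meeting with mouse 2, and mouse 4 overlapped both of its neighbours.

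Cd24a and Cd164 were ordered the other way. Cd24a arrays ran from -0.12 to 0.08 in mouse 1, from -0.25 to -0.04 in mouse 2, from -0.60 to -0.42 in mouse 3 and from -0.55 to -0.35 in mouse 4. Cd164, a sialomucin of progenitor and epithelial cells, had 0.15, 0.05, -0.58 and -0.53, with arrays from -0.02 to 0.45, -0.02 to 0.20, -0.77 to -0.35 and -0.70 to -0.14. Mice 3 and 4 lay below mice 1 and 2 without overlap for both genes. Il34 arrays ran from -0.59 to -0.21, -0.26 to 0.12, 0.08 to 0.33 and -0.13 to 0.18, so that mouse 1 lay below mice 3 and 4 without overlap, and mouse 2 overlapped all of them. With mouse 1 left out, Tap1 (adjusted p = 0.0536 in limma), Cd24a (0.128) and Il34 (0.284) were no longer past the threshold, and 2 immune genes remained called. With mouse 3 left out, Cd24a (0.0741) and Il34 (0.0604) were not called.

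The profile of Tap1 and Il6st over the arrays was shared with many other probes. Of all tested probes, 26, that of Tap1 included, had a Pearson r above 0.9 with the Tap1 probe over at least 12 arrays. Only 2 of these were assigned to an immune gene, Tap1 and Il6st. Of the other 24, those without a single gene symbol were not sorted into immune and other genes. The medians of the 26 probes by mouse were -0.43, 0.27, 1.07 and 0.65. The 10 that name a single gene are Atg12, Mark3, Pgpep1, Cdca8, Il6st, Tap1, Xbp1, Gamt, Rlf and Ucma, and the r of Il6st was 0.93 over 16 arrays. This likeness describes arrays that share the pool, the animals and the slides. A further probe of Il6st, with a value on 4 arrays and so not tested, did not follow it: it had -0.42 in mouse 1, 0.14 in mouse 2 and -0.71 in mouse 4, where the tested probe had 0.58. A further probe of Cxcl14, with 9 values, had an r of 0.91, while the tested Cxcl14 probe had an r of 0.25. Probes of the same gene thus disagreed on the profile, and whether it reflects the named transcripts was not tested. With the probes of the profile left out, which itself takes away Tap1 and Il6st, 3 immune genes differed between mice.

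**Figure D5:**
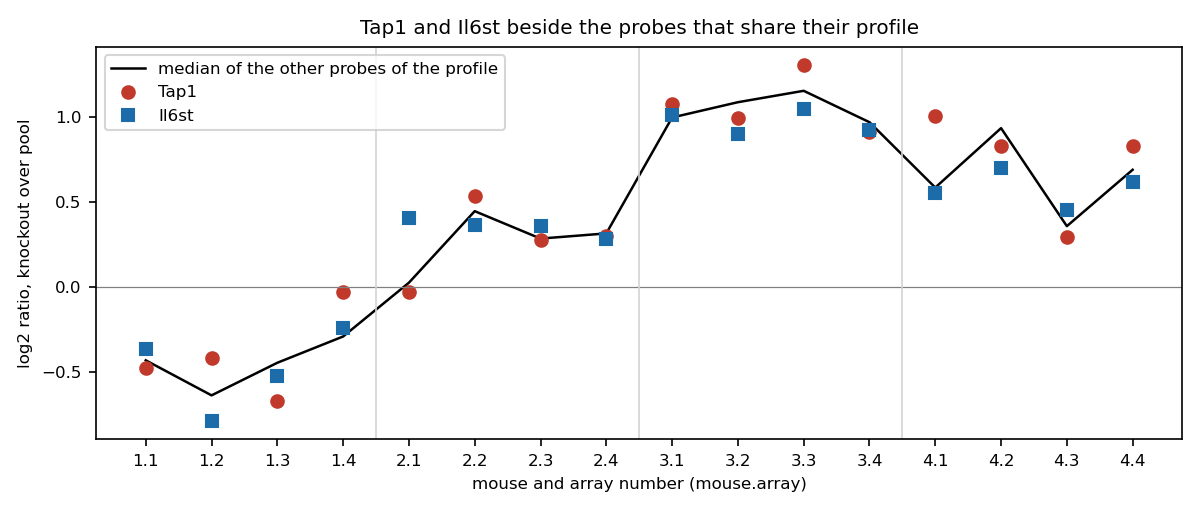
Log2 ratio of Tap1 (red circles) and the tested Il6st probe (blue squares) on the 16 arrays, labelled by mouse and array number, with the median of the other probes that share the profile (black line). Both genes lie near the line, from about -0.4 in mouse 1 to about 1 in mouse 3. The probes of the line were chosen for an r above 0.9 with the Tap1 probe, so its nearness to them follows from that choice.

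Other immune genes followed Tap1 less closely. H2-Ab1 had an r of 0.88 over 15 arrays, Cd74 of 0.80 and Il34 of 0.71 over 16 arrays each. Cd24a and Cd164 had -0.81 and -0.78. H2-Aa, whose product pairs with that of H2-Ab1, had 0.48. The class II genes therefore followed it to different degrees. Mouse 1 was the lowest of the 4 animals for 33 immune genes (44.6%), against 26.1% of all genes, and mouse 3 the highest for 30 (40.5%), against 27.8% of all genes. These genes share arrays, so the shares are a description. The median immune ratio by mouse was -0.03, 0.01, 0.08 and -0.00.

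The same genes were compared between the orientations of the arrays. None of the 74 passed the test between orientations after adjustment, and 0 of 6191 genes did, but 17 immune genes had an unadjusted p under 0.05 (23.0%), against 19.5% of all genes. The orientation means had opposite signs for 38 immune genes (51.4%), against 46.6% of all genes. The B cell antigen Cd22 had -0.32 with knockout RNA in channel 1 and 0.31 in channel 2, and Cd48, an adhesion molecule of leukocytes, -0.39 and 0.15. Both had an adjusted p of 0.159 in limma. They were named after their values were seen, and their means over both channels, -0.00 and -0.12, were averages of opposite readings.

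Other genes of the immune pathways were taken from lists that exclude the genes chosen by symbol, and none of these genes passed the test against the pool. Of 9 antigen processing genes, 7 were below 0 (median -0.06). They include the chaperone Canx (-0.03, 0.02, -0.37 and -0.33, mean -0.18), the protease Ctsl (mean -0.12) and the proteasome activator subunit Psme2 (mean -0.10). Thus none of them shared the high mean of Tap1. Of 20 further interferon genes, 12 were below 0 (median -0.01). Rsad2, the antiviral enzyme viperin, was below 0 in all 4 mice, at -0.30, -0.11, -0.40 and -0.31 (mean -0.28, adjusted p = 0.115 in limma). The conjugating enzyme Ube2l6, which attaches ISG15, had 0.04, -0.02, 0.56 and 0.29 and differed between mice (adjusted p = 0.00719 in limma), and the RNA sensor Oas2 had a mean of 0.09. Ly6e, a lymphocyte surface antigen induced by interferon, also differed between mice (adjusted p = 0.0239 in limma), at -0.31, -0.46, -0.16 and 0.29. Interferon-induced genes thus lay on both sides of the pool.

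Of 7 complement genes outside the C1q chains, 5 were below 0, with Clu at 0.22, C1ra at -0.13 and Cr1l at -0.10. The 10 genes of Toll-like receptor and NF-kB signalling were split, 5 above 0 and 5 below, with Irak2 at -0.18, Map3k7 at -0.18 and Tab1 at 0.17. Of 8 further cytokine and receptor genes, 5 were above 0. The cytokine Mif had 0.11, 0.15, 0.21 and 0.27 (mean 0.19, adjusted p = 0.157 in limma), Socs2, an inhibitor of cytokine signalling, a mean of 0.26, and the receptor Tgfbr2 a mean of -0.10.

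Markers of the cell types a kidney holds were set beside the immune genes as ratios. Of 11 macrophage and dendritic cell markers, 4 were above 0 and 7 below (median -0.04), with Aif1 at 0.14 and Fcgr2b at -0.10. Their medians by mouse were -0.10, 0.03, -0.00 and -0.05, while those of the class II genes were -0.12, 0.06, 0.23 and 0.11. The lists differed most in mouse 3, which was not tested. C1qa, C1qb, C1qc and Cd68 are members of the immune genes as well as of the marker list. The T and natural killer cell list had 4 tested markers (1 above 0, Ptprc at 0.15, and Cd3d the lowest), the B and plasma cell list 4 (3 above 0), and the neutrophil and mast cell list 5 (2 above 0, Mcpt4 at 0.14 and S100a8 at -0.13). Both erythroid markers tested were above 0 (0.03 and 0.07). No marker of these lists passed the test.

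Of the non-immune cell types, 9 of 10 endothelial markers were below 0 (median -0.07), with Ehd3 at -0.17 and Esam at -0.19. The fibroblast and smooth muscle list had 8 of 9 below 0 (median -0.12), with Col3a1 at -0.32 and Fbln1 at -0.18. The collagen gene Col1a1 differed between mice (adjusted p = 0.0420 in limma), at -0.17, 0.21, -0.23 and 0.04. The medians of the whole fibroblast and smooth muscle list by mouse were -0.18, 0.03, -0.18 and -0.12. The proximal tubule list had 6 of 11 above 0, and Slc22a8, the organic anion transporter OAT3, was its member past the test, with 0.48 (adjusted p = 0.0149 in limma), beside Slc13a3 at 0.21. The part of cell composition in the immune ratios was not tested.

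Of the immune genes, 5 lie within 98 genes of Slc15a2 on its chromosome by gene order. Cd86 is 2 places away, Cd200 is 59, Cd96 is 70, Cd47 is 86 and Il1rap is 98. Cd200 and Cd47 had means of -0.14 and -0.15 and Cd96 of 0.08. Cd86, a costimulatory ligand of antigen-presenting cells, had a value on 5 arrays only, all above 0 (0.04 to 0.90), and was not tested.

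The other 46 immune genes with a probe did not have a value in both orientations of every mouse. Cd59a, Cd8b1, H2-T23 and Irf9 had none, and the rest had values on 1 to 14 arrays. They include Stat3 (10 arrays), Irf7 (4), Cxcl1 (7) and Il1b (2), so that the central inflammatory cytokine of the list was hardly measured. H2-Ea, the alpha chain of I-E and partner of H2-Eb1, was named after its values were seen: it had 1.23, 0.54 and 0.17 in mice 2, 3 and 4 over 6 arrays, which ran from -0.36 to 1.48. No statement about direction can rest on these genes.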

How the data were processed

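Kidney RNA of 4 knockout mice and 1 wild-type pool was compared on 16 two-colour arrays. Scans were quantified in GenePix Pro 3.0, and the authors took mean intensities less background and scaled each array to a median ratio of 1, per the labels. The deposited values are log2 ratios, 1 per probe and array. The base was worked out from the values: 45.6% of 720 distances between repeated values matched log2 of simple fractions, and 0 matched natural or decimal logarithms. Dye per channel, slide and date are not given in the sources used here.

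Arrays were centred on their median, whose deposited values were -0.0929 to 0.00761, and turned to knockout over pool. After turning, the lowest correlation between arrays of different mice in the same orientation was -0.0147. When their orientations were opposite, it was -0.204. For different mice, the median r was 0.173 if the orientation was shared and 0.0346 if not. Arrays from the same mouse had medians of 0.254 and 0.111 respectively. Arrays of opposite orientation from the same mouse were thus less alike, by median, than arrays of different mice with a shared orientation. A mouse was the mean of its orientation means. A probe needed a value in each orientation of every mouse (10804 probes). Genes were averaged over their tested probes that name no other gene. Of the probes, 11723 had 1 symbol, 806 several and 7676 none, and 16 naming several genes, an immune gene among them, were left out. Symbols were looked up by gene identifier (11590 matched, 0 changed).

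Ratios were tested against 0, mice by a moderated F test with an orientation term, and orientations by their difference, all with limma 3.58.1 in R 4.3.3, two-sided, with Benjamini-Hochberg adjustment over 6191 genes and a threshold of 0.05. Standard errors are the SD over 4 mice divided by the square root of 4. The tests were checked on simulated data. Named genes were the immune genes past any test, the 12 with the smallest p, the 8 with the largest SD, the smallest p of each prefix, the smallest p of each list, and those with probes of opposite sign. The members, lists and rule were chosen with earlier results of these data known. Alternatives covered left-out mice, channels, array pairs, centring, scaling, filters, probe choice and blocks.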

Additional observations from a re-analysis of the deposited data

Results flagged for a closer look

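The 5 immune genes that differed between knockout mice had adjusted p-values in limma of 2.13e-06 for Il6st, 7.40e-05 for Tap1, 0.00200 for Cd164, 0.00354 for Il34 and 0.00693 for Cd24a. In 2 of the 74 immune genes 1 mouse stood apart from the other animals by Dixon's criterion. Chance meets it in about 1 of 20 groups, a larger share than 2 of 74. Both cases were mouse 3: H2-Q10 at 0.155, where the other mice lay between -0.01 and -0.00, and Il24, a cytokine of the interleukin 10 family, at -0.262, where they lay between 0.10 and 0.13. Neither gene passed the moderated F test between mice (adjusted p = 0.801 for H2-Q10 and 0.323 for Il24 in limma). The H2-Q10 arrays of mouse 3 (0.09 to 0.23) lay inside the range of mouse 4 (-0.41 to 0.28).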

How the results depend on the processing

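No immune gene passed the test against the pool in any alternative except the fit of the 16 arrays with the mouse as a random block, which called 4 (Cd24a, Il4ra, Cd47 and Ifit3) and 467 genes in all, 166 higher and 301 lower. That fit took arrays of a mouse as nearly independent, at a correlation of 0.0140. For all genes, the count of 13 became 3 to 10 with a mouse left out, 8 with knockout RNA in channel 1 only and 3 in channel 2 only. Other settings changed the genes that could be tested. The count was 4 of 4305 genes with arrays 1 and 2, and 8 of 3576 with arrays 3 and 4. It was 40 of 2681 over probes with a value on all 16 arrays, and 2 of 8062 over probes with 1 or more values for each mouse. The median immune ratio was -0.0313 with arrays 3 and 4, over only 35 immune genes. Between mice, the immune count of 5 became 2 to 6 and the count of all genes 45 to 135 with a mouse left out. Without the probes of the Tap1 profile, Tap1 and Il6st themselves among them, 3 immune genes were called. With array number as a replicate block the counts were 6 and 130, Ifi27l2a being added (adjusted p = 0.0400 in limma). Deviations of same-numbered arrays of different mice correlated at -0.04 to 0.45 over 24 pairs (median 0.12), not above 0.1 in every pair, and the numbers were not taken to pair the arrays. Probes measured on all 16 arrays covered 2681 genes, of which only 26 were immune. Between orientations, restricting the test to these probes called 104 genes, of which 0 were immune. Averaging all probes of a gene before the filter was chosen after seeing the data: it left the same number of immune genes, 74, with 5 called between mice, and gave Il6st a mean of 0.26.

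Ratios against the pool were recomputed for the immune genes chosen by test, smallest p, SD, prefix or probes of opposite sign. Of these ratios, 345 kept their direction and their side of the threshold and 4 passed it in the random block fit. A further 21 changed sign, all of genes not past the threshold. Other immune genes described above, such as Ifitm1, H2-Aa and Irf3, are not in these counts. Over all 74 immune genes, the orientation means had opposite signs for 38. Over the fits with a mouse left out, Il34 ran from -0.137 to 0.0587 (without mouse 1), Ifi27l2a from -0.155 to 0.0292 (without mouse 1), Ccl1 from -0.0438 (without mouse 2) to 0.208, Tlr12 from -0.0229 (without mouse 3) to 0.107, Cd63 from -0.0568 to 0.0192 (without mouse 3; also above 0 without mouse 4) and Il16 from -0.0226 (without mouse 3) to 0.0527. In channel 1 only, Ccl5 had -0.174, Stat4 0.0622, Cd63 0.0470 and Il16 -0.0132. In channel 2 only, Il34 had 0.0499, Ccl1 -0.0371, Ifi27l2a 0.0448 and Cxcl12 -0.0163. Cd63 had 0.00688 with arrays 1 and 2 and 0.00352 with arrays scaled to equal spread. With arrays 3 and 4, Ifi27l2a had 0.0180 and Cxcl12 -0.0329. Cxcl12 had -0.00948 over probes with a value on all 16 arrays and with the probe that has the most values. The cause of these changes was not tested.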
